A study of Sus scrofa with 9 samples.

Results

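The data are 9 small RNA libraries of female Jinhua pigs, all from a back muscle, the longissimus dorsi, at 5 stages. They came from fetuses at day 90 of gestation (E90, 1 library), newborn pigs (day 0, 1 library), and pigs at day 30 (1 library), day 180 (3 libraries) and 7 years (3 libraries). The study used 15 pigs in all, and the sources used here do not say how they were spread over the libraries, or whether animals were pooled. All groups share the sex, the breed and the muscle, and none was treated. The subject here is miR-188-5p and miR-660-5p, 2 of the 526 miRNA arms in the deposited tables, which are the arms of 2 hairpin precursors lying within 10 kb of each other on the X chromosome. The pair was chosen by its summed level, which was steeply lower at later stages, so its levels and ratios across stages are given as a description, without a test.

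A miRNA is cut from one or both arms of a hairpin precursor, named 5p and 3p, and directs silencing of messenger RNAs that pair with its seed, the bases 2 to 8. In human, mir-188 and mir-660 belong to a cluster of related hairpins in the gene of the chloride transporter CLCN5. Its other members are mir-532, mir-500, mir-501, mir-502 and mir-362. In mouse bone marrow, miR-188 favours fat over bone formation with age, and in human lung cancer cells miR-660 represses the p53 inhibitor MDM2.

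Both hairpins lie on the plus strand of chromosome X in the Sscrofa10 assembly, mir-188 at chrX:48632378-48632485 and mir-660 at chrX:48640809-48640903, with 8323 bp between them. miR-188-5p covers bases 48632395 to 48632416, miR-188-3p bases 48632434 to 48632454 and miR-660-5p bases 48640827 to 48640848. No annotation of that assembly was used here, so no exon or intron is assigned. In the RefSeq gene table of Sscrofa11.1, MIR532, MIR500 and MIR362 follow each other on X, with CLCN5 next in order. MIR188 and MIR660 are not named there, so the place of the pair relative to these genes is not established here. The mature arms are shown because the seed sets which messenger RNAs a miRNA can pair with. Seeds are in capitals.
miR-188-5p: cATCCCTTgcatggtggagggt
miR-188-3p: cTCCCACGtgcagggtttgca
miR-660-5p: tACCCATTgcatatcggagttg
The 2 members are both 22 nt long and carry the same base at 13 positions. Their longest shared run is TTGCAT, positions 7 to 12 counted from the 5′ end. Their seeds share 5 of 7 bases and differ by T3C and C6A, miR-188-5p being given first. No other arm among the 526 carries the seed of either member or of miR-188-3p.

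The hairpins are shown whole, with the measured arms in capitals, to let their likeness be read along the full length.
mir-188: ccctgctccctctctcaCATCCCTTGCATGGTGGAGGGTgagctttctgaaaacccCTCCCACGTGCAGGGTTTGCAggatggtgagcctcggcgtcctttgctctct
mir-660: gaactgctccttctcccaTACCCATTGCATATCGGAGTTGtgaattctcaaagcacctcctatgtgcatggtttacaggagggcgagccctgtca
Globally aligned, they were identical in 69 of 109 columns (63.3%). Against the 68 other conserved hairpins, the median identity was 46.1% for mir-188, with a highest value of 53.7%, and 49.1% for mir-660, with a highest value of 56.8%. The predicted minimum free energy was -40.5 kcal/mol for mir-188 (108 nt) and -32.9 kcal/mol for mir-660 (95 nt). The predicted fold had 2 hairpin loops for mir-188 and 1 for mir-660, so the energies are not those of like structures. In the predicted fold of mir-188, 15 bases of the 5p arm paired with bases of the 3p arm. Only the 5p arm of mir-660 had a row of its own in the tables, whereas mir-188 had both.

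Libraries held from 3476614 to 12259667 high-quality reads, and the 100 conserved arms took 2.35% of them in the fetus, 1.67% in the newborn and 0.915% a month after birth. They took 0.200% to 0.251% at day 180 and 0.116% to 0.158% at 7 years. Levels below are RPM, copies per 1000000 high-quality reads. An arm without a listed copy number may hold a few copies, and a floor of 3 copies stands for it, which is 0.245 to 0.863 RPM. Of 8 muscle miRNA families sought as a check of the tissue, 2 had rows, and their 4 arms summed to 0.992 RPM at E90, 34.0 at day 0, 14.4 at day 30, at most 0.767 at day 180 and at most 1.07 at 7 years. The 2 families were miR-1 and miR-208a, whereas miR-133a, miR-133b and miR-206 were sought and had no row. At day 180 the miR-1 arms were at most 0.408 RPM, near the floor, and replicate 3 listed neither. The labelled tissue is thus not checked by abundant markers.

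miR-660-5p was the abundant member, and its level was lower at every later stage from the fetus to the oldest animals. It stood at 1402 RPM at E90, 810 at day 0 and 230 at day 30. At day 180 its 3 libraries gave 138, 68.1 and 99.5 RPM, and at 7 years 4.17, 4.84 and 4.05. Every library of 7 years lay far below every library of day 180, and every library of day 180 below that of day 30. Lower values at day 180 than at day 30 were common. The median fold of 52 conserved arms listed at both stages was 5.71. In these bulk samples, fewer cells that express an arm and less of it per cell cannot be told apart.

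**Figure D1:**
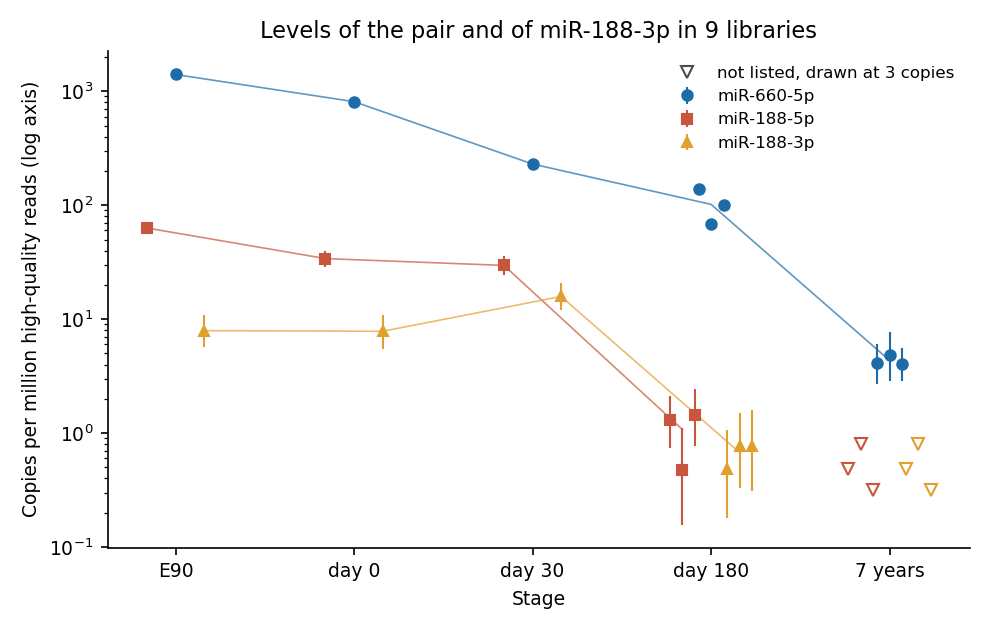
RPM (log axis) of miR-660-5p, miR-188-5p and miR-188-3p by stage, 1 point per library, with exact 95% Poisson intervals as bars and lines through the stage means. miR-660-5p kept a level near 100 RPM at day 180 and dropped to between 4.05 and 4.84 at 7 years, while both mir-188 arms had dropped by day 180; open triangles mark libraries in which an arm was not listed, drawn at 3 copies.

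miR-188-5p was the rarer member in every library. It stood at 63.1 RPM at E90 (318 copies), 34.0 at day 0 (152 copies) and 29.6 at day 30 (103 copies). At day 180 its libraries gave 1.31, 0.479 and 1.44 RPM, from 16, 5 and 13 copies. No library of 7 years listed it. All 3 stages up to day 30 lay above every library of day 180, and lower values at day 180 than at day 30 were common among conserved arms. Both members thus had a lower mean at each later stage, or were unlisted from some stage on, as had 13 of 41 conserved arms listed in at least 6 libraries (31.7%).

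miR-188-3p, the product of the other arm of the same hairpin, had its highest level at day 30. It stood at 7.93 RPM at E90, 7.83 at day 0 and 15.8 at day 30, from 40, 35 and 55 copies. Its day 180 libraries gave 0.489, 0.767 and 0.776 RPM, and none of 7 years listed it. E90, in contrast, was the highest library for both members in RPM. Per copy of the other conserved arms the ratio of E90 to day 30 was 0.859 for miR-188-5p and 0.202 for miR-188-3p. On that scale both mir-188 arms thus stood higher at day 30 than at E90. From day 0 to day 30 the counting interval of the RPM ratio of miR-188-3p was 0.314 to 0.770 (day 0 over day 30), and that of miR-188-5p 0.888 to 1.49.

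Among the steps with a measured fold, the one with the largest RPM fold was that from day 30 to day 180 for miR-188-5p and that from day 180 to 7 years for miR-660-5p. For miR-188-5p the last step has only a lower bound and cannot be ranked against the others. From E90 to day 0 their folds were close, miR-660-5p being 1.73-fold lower at birth (exact 95% counting interval 1.66 to 1.80) and miR-188-5p 1.85-fold (1.52 to 2.27). From day 0 to day 30 miR-660-5p was 3.53-fold lower (3.26 to 3.81), whereas for miR-188-5p the ratio was 1.15 with an interval that includes 1. Per copy of all other conserved arms the ratios of day 0 to day 30 were 1.97 for miR-660-5p and 0.642 for miR-188-5p, so that on this scale miR-188-5p stood higher at day 30 than at birth. These intervals cover counting error only, since each of these stages had 1 library.

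From day 30 to day 180 miR-188-5p was 27.6-fold lower, with ratios from 20.6 to 61.8 over the 3 libraries of day 180. Its other arm miR-188-3p was 23.4-fold lower over that step, with ratios from 20.4 to 32.3. miR-660-5p was only 2.26-fold lower, with ratios from 1.67 to 3.37. The median fold of 52 conserved arms listed at both stages was 5.71, and 13.5% of them had a fold at least as large as that of miR-188-5p, against 71.2% for that of miR-660-5p. The copies of all other conserved arms together were 4.15-fold lower at day 180. Per copy of these other arms miR-188-5p was 6.76-fold lower at day 180 than at day 30, and the ratio of miR-660-5p was 0.553, the higher value being that of day 180.

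From day 180 to 7 years miR-660-5p was 23.4-fold lower, from 102 ± 34.8 RPM (SD, n = 3) to 4.35 ± 0.426 (SD, n = 3), with ratios from 14.1 to 34.0 between single libraries. This was the largest fold among 38 conserved arms listed at both stages, whose median was 1.99 and of which 2.63%, miR-660-5p itself, reached it. Arms unlisted at 7 years are outside that ranking. Of 26 conserved arms listed at day 180 and in no library of 7 years, 1, miR-409-3p, had a larger fold, at least 39.2-fold lower against a floor of 3 copies per library. The other bounds were at most 3.30, which leaves the size of those folds unknown. Relative to the copies of the other conserved arms the fold was 14.3. Of 67 conserved arms listed in any of these 6 libraries, 29 (43.3%) had each 7 years value below each day 180 value, with unlisted values counted as 0. By that count the absence of overlap is common in this comparison. It includes arms unlisted at 7 years, such as miR-188-5p, for which an overlap within the floor cannot be seen. edgeR's quasi-likelihood test over 175 arms called 6 lower at 7 years (3.43%), with 1 of the 2 members, miR-660-5p, among them (log2 fold change -3.62, SE 0.30). With the 6 libraries of these stages alone, 61 arms passed the filter and 2 were called lower. In the fit of all 9 libraries miR-188-5p was tested and not called, but it passed the filter only through its levels up to day 30. With 16, 5 and 13 copies at day 180 and none listed at 7 years, the missing call says little. Since the members were chosen with these levels known, the count of 1 of the 2 members called is a description.

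**Figure D2:**
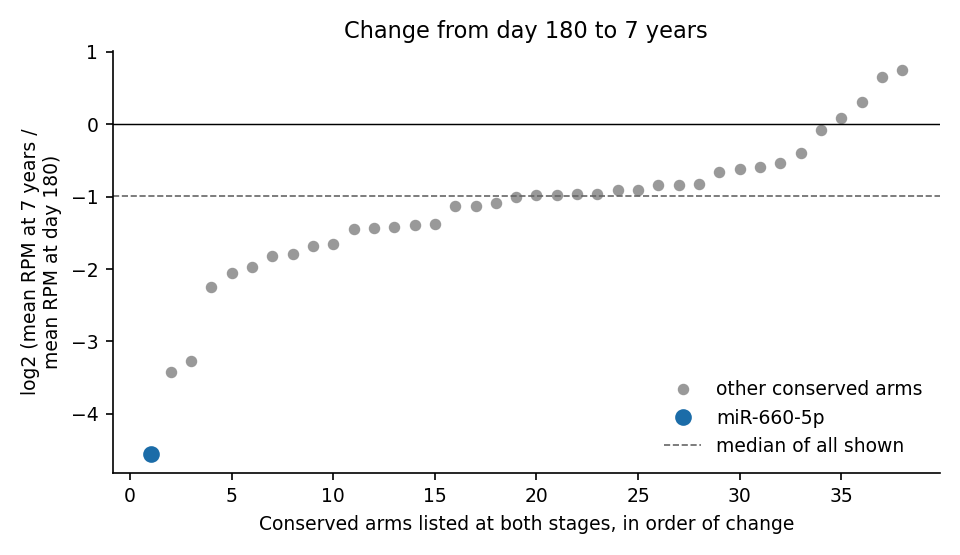
The log2 ratio of the mean RPM at 7 years to that at day 180 for the 38 conserved arms listed at both stages, in order of the ratio, 1 point per arm. Among these arms miR-660-5p lies lowest at -4.55; the 26 arms unlisted at 7 years are not shown, and the dashed line is the median of all arms shown.

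For miR-188-5p the same step gives only a lower bound, at least 2.01-fold lower at 7 years than the 1.07 ± 0.520 RPM (SD, n = 3) of day 180, with the floor of 3 copies per library. Per copy of the other conserved arms this bound was only 1.23. It holds for the means and not for each library. Day 180 replicate 2, at 0.479 RPM, lay below the floor of 7 years replicate 2, 0.806 RPM. The bound from E90 to 7 years was at least 118-fold, while miR-660-5p was 322-fold lower over that span. Per copy of the other conserved arms these values were far smaller, at least 7.17-fold for miR-188-5p and 19.4-fold for miR-660-5p. At the ratio of the members found at day 180, the miR-660-5p copies of the 7 years libraries would go with 0.186 to 0.392 copies of miR-188-5p, and at that of E90 with 0.810 to 1.71. At the ratio of day 30 they would go with 2.32 to 4.90 copies, 10.6 over the 3 libraries. With unlisted cells counted as 0, miR-188-5p had 0 of 82 copies of the pair in these libraries together. The exact binomial 95% interval of its share then reached up to 4.40%, below the 11.4% of day 30 but above the 1.02% of day 180. An unlisted arm may hold a few copies, however. Set against the listed copies of the pair, 3 copies per library are 11.5%, 16.7% and 7.89%. A lower share than that of day 180, or a higher one up to about that of day 30, was therefore not detectable at 7 years at this depth.

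Among the conserved arms of each library miR-660-5p held a high rank up to day 180. These arms took at most 2.35% of the reads, and only 2 of 8 muscle miRNA families sought had rows. The ranks are thus among the listed arms alone and not among all miRNAs of the muscle. miR-660-5p was the arm of rank 5 of 83 listed at E90, 4 of 78 at day 0 and 6 of 67 at day 30. At day 180 its rank was 4 in each library, of 61, 54 and 48 arms. At 7 years it ranked 12 of 28, 12 of 28 and 13 of 37. Its share of the conserved copies was 5.96% at E90, 4.84% at day 0 and 2.51% at day 30, then 5.48%, 3.40% and 4.48% at day 180, and 0.263%, 0.369% and 0.348% at 7 years. By this measure, which does not use the number of reads, the share of day 180 was above that of day 30 in all 3 libraries. miR-188-5p ranked 18, 19 and 14 at E90, day 0 and day 30 and 32, 41 and 28 in the libraries of day 180.

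The share of miR-188-5p in the copies of the pair describes the ratio of the members inside a library, free of the library size. It was 4.30% at E90 (exact binomial 95% interval 3.85 to 4.79), 4.03% at day 0 (3.42 to 4.71) and 11.4% at day 30 (9.42 to 13.7). At day 180 it was 0.940%, 0.698% and 1.43%, with a mean of 1.02% ± 0.371 (SD, n = 3). The intervals of E90 and day 0 overlap, that of day 30 lies above both, and those of all 3 libraries of day 180 lie below. In copies, miR-660-5p exceeded its neighbour 22.2-fold at E90, 23.8-fold at day 0 and 7.76-fold at day 30. At day 180 it had 1687 copies against 16, 711 against 5 and 898 against 13. Reads of 2 different sequences can be captured with unequal yield, so the ratio is one of reads and not of molecules.

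**Figure D3:**
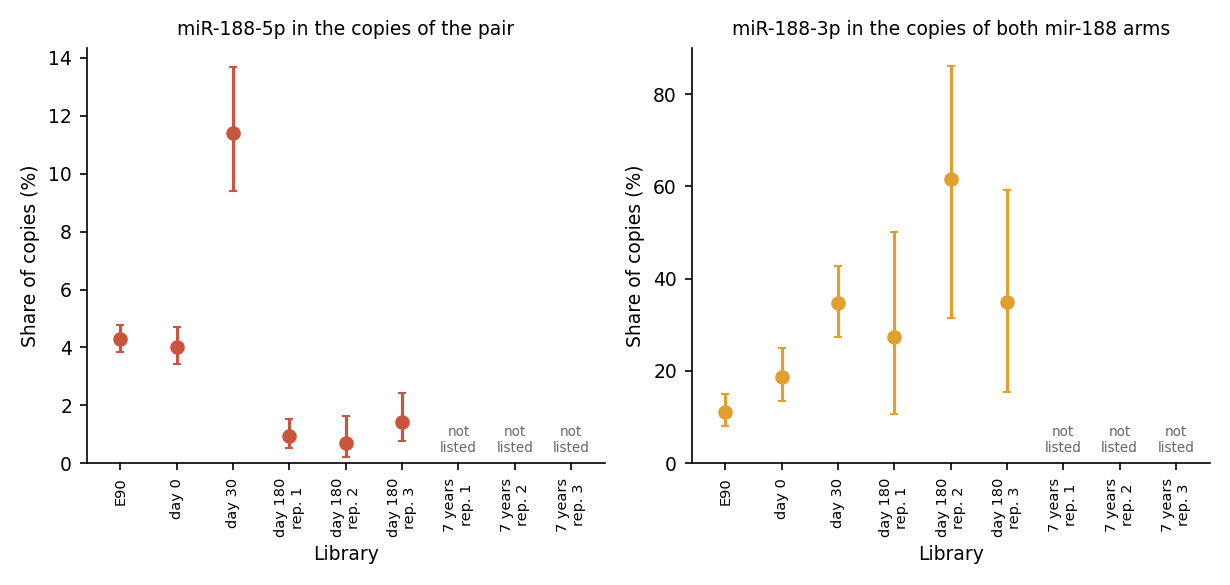
Left, the share of miR-188-5p in the copies of miR-188-5p and miR-660-5p; right, the share of miR-188-3p in the copies of both mir-188 arms; 1 point per library with exact binomial 95% intervals. The left share is highest at day 30 (11.4%) and lowest at day 180, and the right share is higher at day 30 (34.8%) than at E90 (11.2%); libraries of 7 years listed no mir-188 arm.

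Arm use of mir-188 also differed between libraries. The 3p arm made up 11.2% of the copies of both arms at E90 (40 of 358, interval 8.10 to 14.9), 18.7% at day 0 (35 of 187, 13.4 to 25.1) and 34.8% at day 30 (55 of 158, 27.4 to 42.8). The intervals of E90 and day 30 do not overlap. At day 180 the 3p arm had 6 of 22 copies, 8 of 13 and 7 of 20, with intervals of the share that overlap each other and that of day 30. At 7 years neither arm was listed and the share has no value.

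The main sequence, the most abundant form of an arm in a library, was fixed for miR-660-5p. All 9 libraries listed the same 22 nt form, identical to the hairpin, over copy numbers from 18 to 7070. miR-188-3p likewise had 1 main form in its 6 libraries. miR-188-5p had 2, since day 30 listed a form whose last base differs from the hairpin (T22A, the base of the hairpin first), and its other 5 libraries listed the form that matches it. The 2 forms are set side by side, with the base off the hairpin in capitals.
day 0: catcccttgcatggtggagggt
day 30: catcccttgcatggtggagggA
The start of the arm and with it the seed was the same in all libraries. Of 41 conserved arms listed in at least 6 libraries, 18 (43.9%) had 1 main form throughout, and of 484 listed values of conserved arms, 51 (10.5%) had a main form that was not in the hairpin, 24 of them (4.96%) at the last base alone. The copies of forms other than the main one are not given per form in the tables.

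Across the 9 libraries the members' patterns were alike, and each had arms of other hairpins with a higher likeness. Likeness was measured by Pearson's r of log2 (RPM + 0.5) against the 90 other arms listed in at least 5 libraries, as a description without a test, since all points share libraries and depth. The r between the members was 0.908, which placed miR-660-5p 29th in likeness to miR-188-5p and miR-188-5p 9th in likeness to miR-660-5p. Per copy of the other conserved arms these ranks were 10 and 5. The median r of all 90 arms was 0.740 with either member. On that scale the r between the members was 0.955 and the median 0.294 with miR-188-5p and 0.314 with miR-660-5p.

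Most like miR-188-5p were miR-411c-3p (r = 0.991), miR-655-3p (0.985), miR-33a-5p (0.984), miR-541-3p (0.983) and miR-454-3p (0.979). Of these, miR-655-3p and miR-541-3p, and the miR-411 family to which miR-411c-3p belongs by name, are of the imprinted DLK1-DIO3 cluster in mammals. All 5 arms shared its drop between day 30 and day 180. miR-411c-3p, for one, stood at 246 RPM at E90, at 1.96, 0.767 and 1.33 RPM at day 180, and was unlisted at 7 years. miR-33a-5p, which is embedded in the gene of the sterol regulator SREBF2 in mammals, went from 18.1 RPM at day 30 to 0.816, 0.958 and 0.554, and was also unlisted at 7 years.

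Most like miR-660-5p were miR-409-3p (r = 0.984) and miR-431-5p (0.964), both of the DLK1-DIO3 cluster as well, then PN-48639689-3p (0.944), PN-24885174-5p (0.943) and miR-301b-3p (0.936). miR-409-3p stood at 4799 RPM at E90, 405 at day 0 and 186 at day 30, at 27.7, 14.1 and 21.3 at day 180, and was unlisted at 7 years. Its order of the day 180 libraries, replicate 1 highest and replicate 2 lowest, was that of miR-660-5p. This order is not particular to them, as the share of reads in all conserved arms had it too (0.251%, 0.200% and 0.222%). Among the other arms named, miR-431-5p and miR-301b-3p had it, and PN-48639689-3p and PN-24885174-5p did not.

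**Figure D4:**
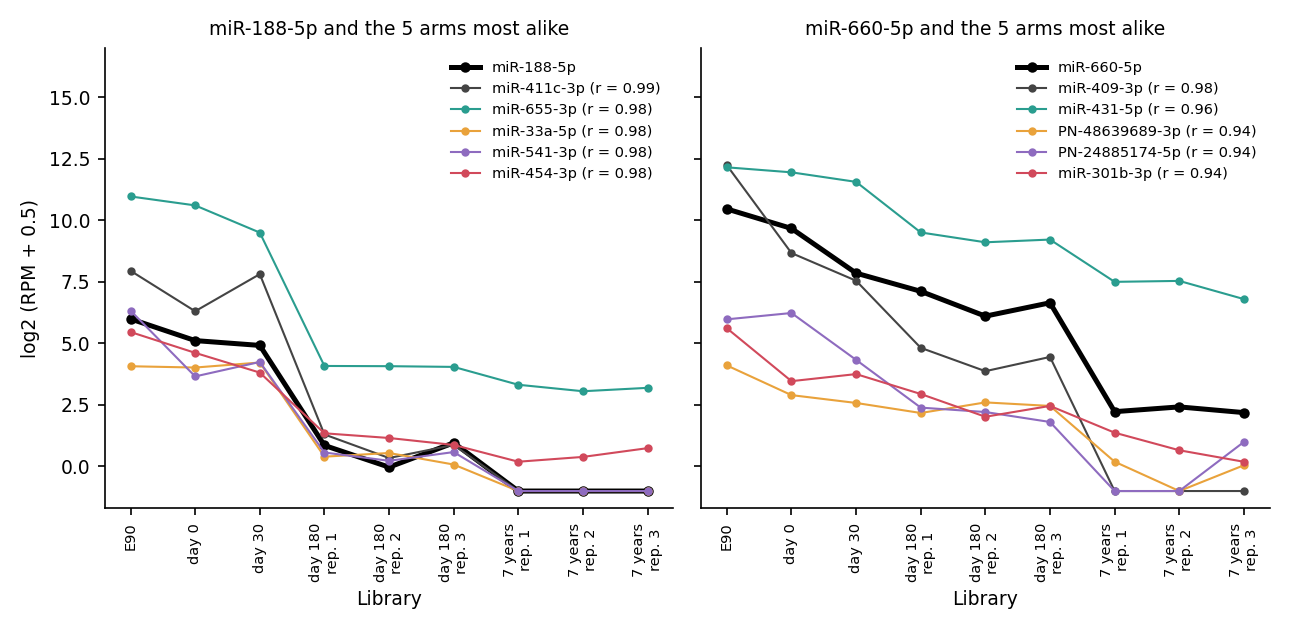
log2 (RPM + 0.5) in the 9 libraries of each member (thick line) and of the 5 arms with the highest Pearson r to it. The arms beside miR-188-5p drop between day 30 and day 180, and miR-660-5p itself drops most between day 180 and 7 years; points at -1 are libraries in which an arm was not listed.

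PN-48639689-3p is an entry of the table of putative new miRNAs, and its hairpin is shown since its interval numbers (48639689 to 48639952, plus strand) fall between those of mir-188 and mir-660. Capitals mark the part of the measured arm that matches it.
PN-48639689: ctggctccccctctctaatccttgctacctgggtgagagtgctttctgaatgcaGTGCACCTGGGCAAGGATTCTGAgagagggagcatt
The chromosome field of this entry reads scaffold and names no chromosome, so its place on X is not established here. Its hairpin was identical to that of mir-188 in 58.0% of 112 aligned columns and to that of mir-660 in 58.0% of 100, above the highest identity of either to the 68 conserved hairpins outside the pair and below the 63.3% of the pair itself. Its level was 16.7 RPM at E90, 6.94 at day 0 and 5.47 at day 30, and its mean was 4.85 ± 0.790 (SD, n = 3) at day 180, from 49, 58 and 45 copies. At 7 years it was 0.641 and 0.533 RPM in replicates 1 and 3, from 4 and 5 copies, and replicate 2 did not list it. The ratio of day 30 to day 180 was 1.13, set beside 2.26 for miR-660-5p and 27.6 for miR-188-5p. Each library of 7 years lay below each of day 180, and edgeR did not call the difference. Per copy of the other conserved arms its r with miR-660-5p was 0.574, rank 30 of 90.

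None of the other 5 miRNA families of the human cluster had a row in the conserved table, although MIR532, MIR500 and MIR362 are annotated in the pig. Among markers of other cell types, the blood marker miR-223-3p was at 2.58 RPM in the fetus, 5.59 in the newborn and 4.03 at day 30. It was at 2.22 to 7.57 RPM at day 180 and 0.959 to 3.85 at 7 years, and the libraries of these stages overlap. It was the only 1 of 6 blood families sought that had a row, and 4 of 8 epithelial families had rows, with 5 arms. The epithelial arms summed to 12.7 RPM at E90, 3.80 at day 0 and 10.1 at day 30. At day 180 the sum was 0.958 to 1.96 RPM and at 7 years 0.641 to 1.07, again with overlap. At day 0, day 180 and 7 years these sums were miR-141-3p alone. The other epithelial arms were listed at E90 only, save miR-200b-3p, listed also at day 30. Of the lists for endothelium, smooth muscle and fibroblasts, liver and nerve, no arm had a row. A missing row is not a measured absence from the muscle. The part of other cell types in the levels of the pair was not tested.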

How the data were processed

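The values deposited by the authors are counts, per the file headers: copies of a miRNA arm in a library, as whole numbers, with the main sequence of each arm and the high-quality reads of each library. Hairpins were placed on Sscrofa10, per the file headers. Aligner, caller and annotation: not given in the sources used here. Groups follow the stage named in the labels. Empty cells (416 of 900 conserved values) were counted as 0, and only 5 listed conserved values were under 3 copies. Identical putative new entries were merged (426 to 395). RPM used the high-quality reads.

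The members and lists were chosen with earlier results of these data known. The arms most like each member were taken by a rule, the 5 highest Pearson r over 9 libraries. edgeR 4.0.16 (R 4.3.3) fitted a term per stage on all 9 libraries, with TMM on the high-quality reads, filterByExpr (minimum count 10, minimum total 15), a robust quasi-likelihood fit and Benjamini-Hochberg adjustment at 0.05. It was tested on simulated data with known changes. Where most tested arms changed, it missed some and called unchanged arms more often than the threshold allows. In a design with few changed arms, added after that result was seen, it recovered all tested changes and still called an unchanged arm. The calls of edgeR therefore serve only as background. Alternatives were DESeq2 1.42.0, other scalings, filters and pseudocounts, empty cells set to 2 copies, and single replicates left out. No label says that libraries came from separate animals, and p-values then reflect the spread among these samples alone, which may be technical. Intervals are exact at 95% and, like the floors, cover counting error only, as reads are not independent molecules. Hairpins were folded with RNAfold 2.7.2 and aligned globally with Biopython 1.88 (match 1, mismatch -1, gap opening -2, extension -1). Python 3.11.15, numpy 2.4.6, scipy 1.17.1, pandas 2.3.3 and matplotlib 3.10.9 were used.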

Additional observations from a re-analysis of the deposited data

How the results depend on the processing

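The log2 fold change of miR-660-5p from day 180 to 7 years, a description since the pair was chosen by its levels, was -4.55 to -3.49 over the 13 alternatives run. The number of arms called at 7 years was 6 of 175 tested. It went to 14 without TMM factors (the median log2 fold change of tested arms moving from -0.10 to -0.99). With the 6 libraries of these stages alone it was 2 of 61 tested. It was 2 to 8 when single replicates were left out, with 2 calls without day 180 replicate 1, day 180 replicate 3 or 7 years replicate 2. No pairing of the libraries by replicate number was seen, though 3 libraries per stage cannot exclude one. With the replicate number as a block in these 6 libraries 1 arm was called, in a fit with fewer degrees of freedom left. The deviations of libraries with the same number had correlations of -0.026, -0.13 and -0.098, and no library correlated best with its own number. The RPM fold of miR-660-5p between these stages, 23.4, became 14.3 per copy of the other conserved arms and 12.2 with TMM factors, and was 19.3 to 27.3 without single replicates. The lower bound of miR-188-5p, 2.01, became 3.01 with a floor of 2 copies and 1.23 per copy of the other conserved arms. It was 1.67 to 2.69 without single replicates. The shares at E90, day 0, day 30 and day 180 moved by less than their error.

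Of the 5 arms named as most like miR-660-5p, 2 stayed among the first 5 with a pseudocount of 0.1 RPM, 1 per copy of the other conserved arms, 3 by Spearman's correlation and 3 to 5 without single replicates. For miR-188-5p, whose alternatives were added after seeing the data, these numbers were 3, 3, 0 and 4 to 5. At 7 years miR-660-5p rests on 18 to 38 copies and at day 180 miR-188-5p on 5 to 16, which limits what can be read there.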

Other observations

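The main form of PN-48639689-3p differed between early and later libraries at its last base. At E90, day 0 and day 30 it was a 23 nt form ending in a T that is not in the hairpin (A23T, the base of the hairpin first), and in the 5 libraries of day 180 and 7 years that list it a 24 nt form ending in an A that is not in the hairpin (G24A). This pattern was noticed in the data and was not tested.
early: gtgcacctgggcaaggattctgT
later: gtgcacctgggcaaggattctgaA

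In the table of putative new miRNAs 112 entries have scaffold in the chromosome field, of which 60 have a start over 1000000, and none has X there. Of the conserved arms, 32 read scaffold, with a highest start of 238131, and 8 read X.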
